A study of Mus musculus with 63 samples.

Results

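Microglia sorted by the surface protein CD11b were compared between mice with a thermal burn to the skin and sham-treated mice, in cortex collected 5 weeks after the injury. The libraries were chosen by their labelled cell type and treatment: 15 of the 63 libraries in the series entered the comparison, 8 from burn mice and 7 from sham mice, 1 library per mouse. A further microglia library, that of burn mouse 3, was left out because the study had removed this animal for skin ulceration. All mice were female C57BL/6J, 12 weeks old on arrival, and all had received viral injections into the motor cortex of both hemispheres that carried CaMKII-eGFP and mDlx-mRuby2, so the sham mice share the brain surgery, the anaesthesia, the shaving and the pain relief given before surgery. All animals also had paracetamol in their drinking water, while buprenorphine after surgery was given only as needed, to some of the burn mice. Burn mice had a full-thickness burn over about 7 to 8% of the body surface on the right flank. The microglia came from cortex behind the injected motor area, were dissociated with enzymes, cleared of myelin and sorted alive. CD11b is also found on other myeloid cells, so the sort can also hold macrophages from the borders of the brain, monocytes and neutrophils. The mice were perfused with saline through the heart before dissection, a step the study used to remove immune cells around vessels. The study could not exclude some infiltrating macrophages and other cells with CD11b. In bulk RNA of sorted cells, fewer cells of a type and less RNA per cell cannot be told apart.

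Microglia are the resident macrophages of the brain. They arise in the embryo, renew themselves locally and need the growth factor receptor Csf1r to survive. At rest they survey the tissue with fine processes, read nucleotides through the receptor P2ry12 and neuronal fractalkine through Cx3cr1, and prune synapses with the help of complement. After damage or infection they can lower these homeostatic genes and switch on interferon, antigen presentation, cytokine or lipid-handling genes, and a skin burn is known to raise inflammatory mediators in the blood. The study asked whether such a distant injury leaves a lasting mark on gene expression in these cells.

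Markers of microglia were abundant in all 15 libraries. Levels are given as CPM, the counts of a gene per 1000000 counts of its library after scaling between libraries. Csf1r lay at 5291 to 8619 (median 7576) CPM in burn mice and 5607 to 10129 (median 7685) in sham mice. P2ry12 lay at 2119 to 3239 (median 2623) CPM and 2297 to 3467 (median 2626), and Tmem119, a membrane protein that marks microglia, at 1070.1 to 2069 (median 1603) and 1137 to 2262 (median 1499). The ranges of both treatments overlapped for all 8 microglial markers, whose log2 fold change (log2FC, burn minus sham, with its standard error after ±) was −0.06 to 0.07. Itgam, which encodes CD11b itself, had a log2FC of −0.06 ± 0.08.

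Other cell types left smaller traces. The summed level of 8 microglial markers was 20619 to 34721 CPM, that of 10 neuronal markers 18.3 to 45.6 CPM, that of 10 endothelial markers 51.1 to 188 CPM and that of 10 astrocyte markers 199.6 to 358 CPM. The highest astrocyte marker was Slc1a3, which microglia can also express, whereas the water channel Aqp4 had a median of 0.884 CPM in burn mice and 3.14 in sham mice. Among lymphocyte markers, Cd3e had a median of 0 CPM in each group and the list summed to 20.9 to 53.0 CPM. Oligodendrocyte markers summed to 80.4 to 127 CPM, while precursor, mural and choroid plexus or ependymal markers stayed at or under 20.5 CPM in sum. Of the 6 red blood cell markers only Alas2 reached the count minimum, at up to 1.65 CPM.

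The direction of these other markers differed between lists. All 10 border macrophage markers had a log2FC above 0 (median 0.43), 3 of them with an unadjusted p under 0.05: Cbr2 (0.61 ± 0.23), the scavenger receptor Cd163 (0.55 ± 0.20) and the mannose receptor Mrc1 (0.37 ± 0.17). Within sequencing batch 3, the summed border macrophage level was 1638 to 2069 CPM in 5 burn mice and 1361 to 1802 CPM in 5 sham mice, with 1 sham mouse inside the burn range. Over all batches the ranges overlapped, and the highest sum, 2238 CPM, was that of the sham mouse of batch 1. This sum mostly follows 1 gene, Stab1, whose median over the 15 libraries was 1410 CPM beside 1740 CPM for the sum. Mrc1, the next highest, had a median of 168 CPM. In the double-positive libraries Stab1 had a median of 1004 CPM. Of the endothelial markers 9 of 10 were below 0 (median −0.86), led by the vascular receptor Flt1 (−1.0 ± 0.34) and the drug exporter Abcb1a (−1.32 ± 0.47), and so were 8 of 10 astrocyte markers (median −0.54) and 9 of 10 neuronal markers (median −0.25). The remaining brain cell lists were mixed, with 3 of 10 oligodendrocyte markers, 5 of 8 precursor markers, 4 of 8 mural markers and 3 of 5 tested choroid plexus and ependymal markers below 0. Summed neuronal markers ran from 18.3 to 27.6 (median 20.4) CPM in burn mice and from 18.6 to 45.6 (median 26.9) in sham mice, and summed endothelial markers from 51.1 to 111 (median 74.7) and 66.0 to 188 (median 104). Camk2a alone had a median of 14.6 CPM over the 15 libraries, beside 22.9 CPM for the neuronal sum. Both sums overlapped between treatments. The part of these cells in the differences given below was not tested.

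**Figure D1:**
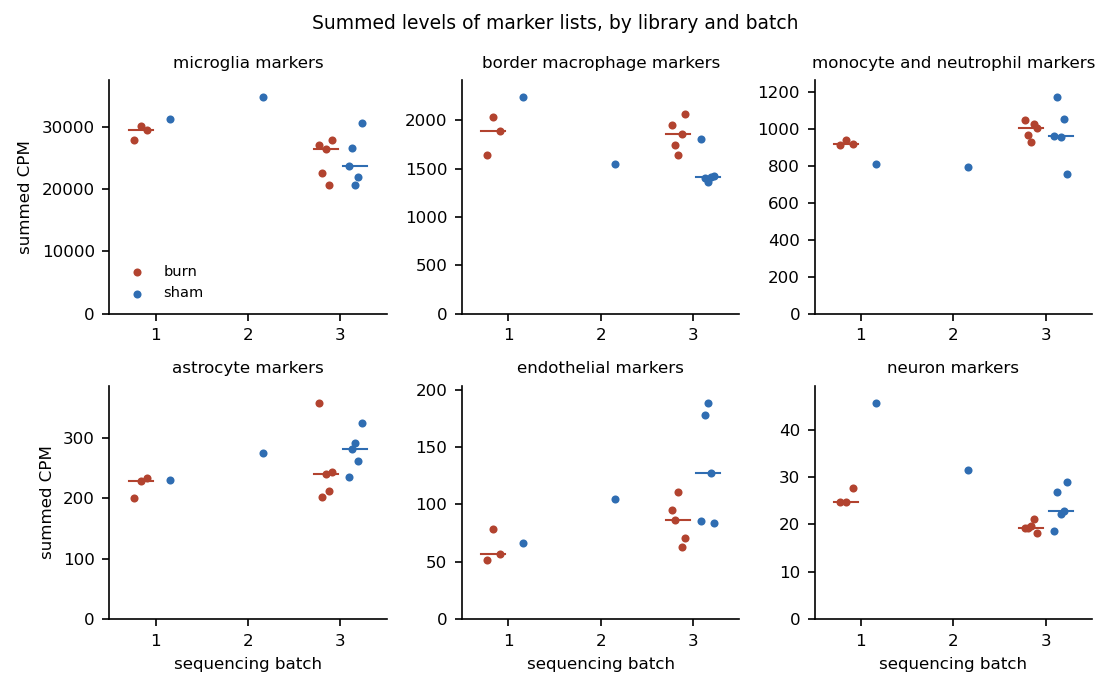
Summed CPM of 6 marker lists in each of the 15 libraries, by sequencing batch and treatment (points are libraries, short bars are medians of batches with more than 1 library). Microglial markers sum to 20619 CPM or more in every library, and in batch 3 the border macrophage sum of 4 of 5 sham mice lies below all burn mice. That sum is mostly Stab1 (median 1410 CPM beside 1740 CPM for the sum). The monocyte and neutrophil sum is mostly Csf3r (median 813 CPM beside 956 CPM).

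The libraries held 16531118 to 54802103 counts, with the 5 libraries of batches 1 and 2 at 39563793 or more and the 10 libraries of batch 3 at 27987231 or fewer. Batch 3 held 5 burn and 5 sham mice, batch 1 held 3 burn mice and 1 sham mouse, and batch 2 held 1 sham mouse alone. A gene without counts in a library could still have a level of up to 3 counts there, or 0.0547 to 0.181 CPM, from counting error only. No pair of libraries held identical counts. Each library is 1 mouse, so the spread between libraries holds the differences between animals and those of dissection, sorting and library preparation together.

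No gene passed the test of burn against sham. Of 26079 genes with at least 10 counts in total, edgeR's quasi-likelihood test with sequencing batch as a covariate called 0 genes (0%), a call being an adjusted p no higher than 0.05 with a log2FC no smaller than 1 in size, and 0 at any fold change. The smallest adjusted p was 0.639. At an unadjusted p under 0.05 there were 2036 genes, 1103 of them (4.23%) higher and 933 (3.58%) lower in burn mice. DESeq2 with the same design called 80 genes, 3 higher and 77 lower, of which 51 had counts in 1 library only and 8 had counts in at least 10 libraries, and it gave 1194 genes at an unadjusted p under 0.05. The 8 genes with counts in at least 10 libraries, named after their values were seen, were Shank3, Ier5l, Sorbs2, Map2, Gm13341, Gm3336, Ppifos and Gm49774.

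The well expressed part of the transcriptome was measured closely enough to bound the size of any difference. For the 8923 genes of at least 10 CPM the median standard error of the log2FC was 0.11, and for 8845 of them (99.1%) the 95% interval lay within a 2-fold change in either direction. Their median log2FC was 0.01. Only 2 of these genes had an estimate of 1 or more in size, both lower in burn mice: Ptprb, a phosphatase of blood vessel endothelium, at −1.11 ± 0.55, and Spock2, a secreted proteoglycan, at −1.04 ± 0.33. The highest estimate was that of Fam71a, at 0.91 ± 0.34. These 3 were named after their values were seen. Below 10 CPM, where 17156 genes lie, the median standard error was 1.11, so that a 2-fold change lay within the 95% interval of a typical gene.

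**Figure D2:**
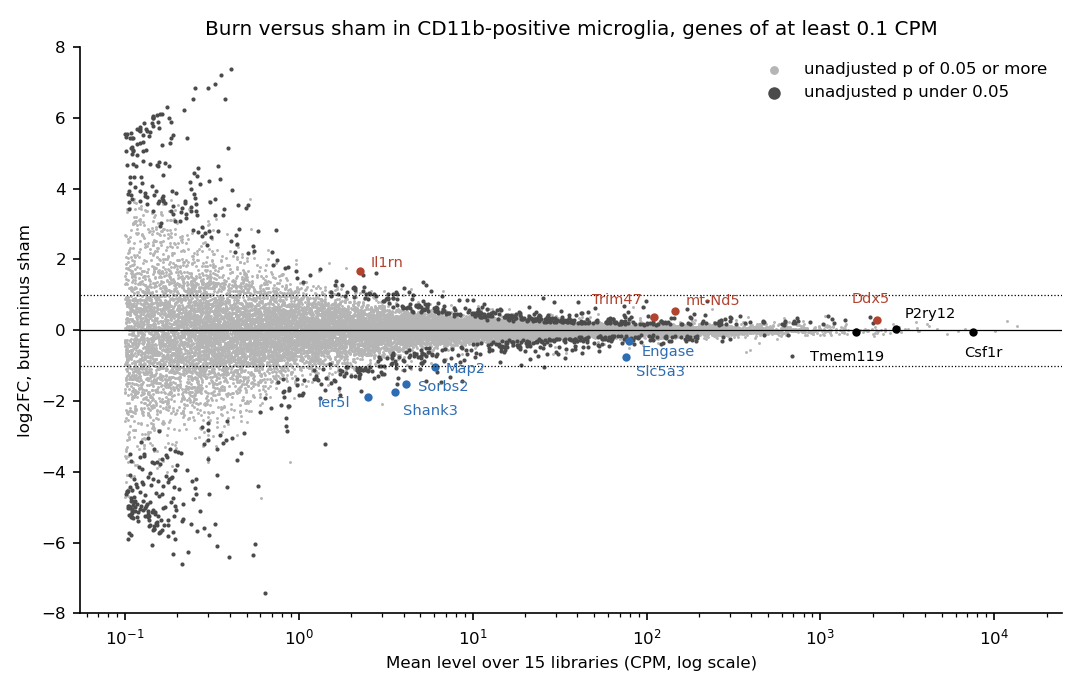
Mean level of each gene over the 15 libraries (CPM, log scale) against its log2FC between burn and sham mice, for genes of at least 0.1 CPM (points; dark where the unadjusted p is under 0.05). The cloud narrows to the right, where Csf1r, P2ry12 and Tmem119 lie close to 0, and among the labelled genes with small p Shank3, Ier5l, Sorbs2, Map2 and Il1rn lie below 10 CPM.

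Separation without overlap was rare. Among 14768 genes of at least 1 CPM, all 8 burn libraries lay below all 7 sham libraries for 2 genes (0.0135%) and above them for 0 genes (0%). The 2 genes were Myo10, a myosin that builds filopodia, and Luzp1, a protein bound to actin and centrosomes. Myo10 lay at 2.97 to 6.60 (median 4.78) CPM in burn mice and 6.65 to 11.6 (median 8.77) in sham mice, a log2FC of −0.87 ± 0.22. Luzp1 lay at 27.1 to 37.7 (median 35.7) and 38.9 to 45.0 (median 42.0) CPM, a log2FC of −0.29 ± 0.09. Within batch 3, where the groups are 5 and 5, burn mice were below all sham mice for 53 genes (0.359%) and above them for 78 genes (0.528%).

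Among genes of at least 1 CPM, the 12 with the smallest p that were lower in burn mice are described first. Batch 3 supplied 10 of the 15 libraries of that fit. A gap between treatments within batch 3, in genes named for a small p, is therefore partly a result of the choice. Shank3, a scaffold protein of excitatory synapses, had the smallest p of all genes (unadjusted p = 2.96e-05, adjusted p = 0.639 by edgeR). Its level was 0.964 to 3.01 (median 1.50) CPM in burn mice and 2.13 to 10.2 (median 5.03) in sham mice, a log2FC of −1.76 ± 0.34. The ranges overlapped through the sham mouse of batch 2, while in batch 3 alone the burn mice (0.964 to 3.01 CPM) lay below the sham mice (3.10 to 10.2 CPM). DESeq2 gave it an adjusted p of 0.00012, and 0.00453 when only genes kept by edgeR's filterByExpr were tested.

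Ier5l, an immediate early response gene, lay at 0.160 to 2.72 (median 1.05) CPM in burn mice and 1.14 to 5.43 (median 3.92) in sham mice (log2FC −1.88 ± 0.43). In batch 3 its burn range of 0.160 to 2.15 CPM stayed below the sham range of 3.25 to 4.45 CPM. DESeq2 gave it an adjusted p of 0.00178, and 0.0339 on the genes kept by filterByExpr. Sorbs2, an adaptor between membranes and the actin cytoskeleton, lay at 1.03 to 4.80 (median 1.42) and 2.23 to 12.6 (median 4.70) CPM (log2FC −1.53 ± 0.35), with overlap in batch 3 too. Outside these 12 genes, at a mean below 1 CPM, Grb14 is given as a gene the study named. This inhibitor of insulin receptor signalling was at 0 CPM in all 5 burn libraries of batch 3, against 0 to 2.29 CPM in the sham libraries of that batch. Over all batches its burn median was 0 CPM and its sham median 0.925 CPM, with counts in 8 of 15 libraries, so close to the floor that no fold is given. DESeq2 gave Grb14 an adjusted p of 0.00128 (0.0339 on the genes kept by filterByExpr) and edgeR one of 0.639.

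The 12 genes also held Map2, which stabilises microtubules in dendrites, Unc13a, which primes synaptic vesicles, and Gnao1, a G protein subunit abundant in neurons. Map2 lay at 2.27 to 6.71 (median 4.34) CPM in burn mice and 6.26 to 12.2 (median 7.14) in sham mice (log2FC −1.03 ± 0.25), and its ranges overlapped only through burn mice of batch 1. Unc13a lay at 6.82 to 11.4 (median 9.29) and 6.78 to 18.9 (median 11.7) CPM (log2FC −0.68 ± 0.17), without overlap in batch 3 (6.82 to 10.2 against 10.7 to 18.9 CPM), and Gnao1 at 3.61 to 10.2 (median 5.36) and 5.46 to 18.7 (median 11.0) CPM (log2FC −0.89 ± 0.23). Beside them stand the neuronal markers: Camk2a, the highest of the 10, lay at 10.1 to 16.2 (median 13.8) and 13.3 to 28.7 (median 17.9) CPM (log2FC −0.47 ± 0.15), Snap25 had a log2FC of −0.38 ± 0.30 and Slc17a7 one of −0.14 ± 0.62. Camk2a stood well above other neuronal markers, with Rbfox3, Syt1 and Tubb3 at medians of 0.662, 0.972 and 0.568 CPM over the 15 libraries.

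Slc5a3, a transporter for myo-inositol, lay at 47.8 to 101 (median 55.6) CPM in burn mice and 28.8 to 165 (median 92.6) in sham mice (log2FC −0.76 ± 0.18). In batch 3 its 5 burn libraries spanned 50.8 to 57.8 CPM, below the sham range of 65.5 to 165 CPM. Hbegf, a growth factor of the epidermal growth factor family, lay at 18.6 to 52.4 (median 20.6) and 12.2 to 57.6 (median 33.2) CPM (log2FC −0.68 ± 0.16), again without overlap in batch 3 (19.0 to 26.1 against 28.3 to 42.4 CPM). Csrnp2, a nuclear protein, had a log2FC of −0.73 ± 0.17 and Engase, an enzyme that trims free glycans, one of −0.31 ± 0.08. The antisense transcript Gm49774 had a log2FC of −1.44 ± 0.36, and its reads cannot be told from those of its partner strand if the counting ignored strand.

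On the higher side most of the 12 genes had smaller estimates and higher levels. Trim47, a ubiquitin ligase, had the smallest p in this direction among genes of at least 1 CPM (unadjusted p = 0.000422) and lay at 98.9 to 140.0 (median 123) CPM in burn mice and 72.6 to 142 (median 90.9) in sham mice (log2FC 0.38 ± 0.09). Zfp622 lay at 59.2 to 106 (median 81.9) and 57.6 to 79.9 (median 63.4) CPM (log2FC 0.38 ± 0.10), and in batch 3 its burn range of 80.1 to 106 CPM began above the sham range of 57.6 to 79.9 CPM. Ddx5, an RNA helicase, had a log2FC of 0.29 ± 0.08 and Rpl22l1, a paralogue of a ribosomal protein, one of 0.46 ± 0.13. Ptma, a small nuclear protein, had a log2FC of 0.27 ± 0.08. The processed pseudogenes Gm9800 and Gm4617 share 68.3% and 86.5% of their 50-base windows with Ptma, so their estimates (0.32 ± 0.09 and 0.34 ± 0.10) may rest on the same reads and are uncertain. The long noncoding RNA AC122252.2 (0.65 ± 0.17) and Gm21860 (0.68 ± 0.20) complete the named genes apart from Il1rn, mt-Nd5 and Gm13341, which are given with their pathways. Gm21860 is annotated on chromosome Y while all mice were female, so its counts cannot be read as expression of that gene.

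**Figure D3:**
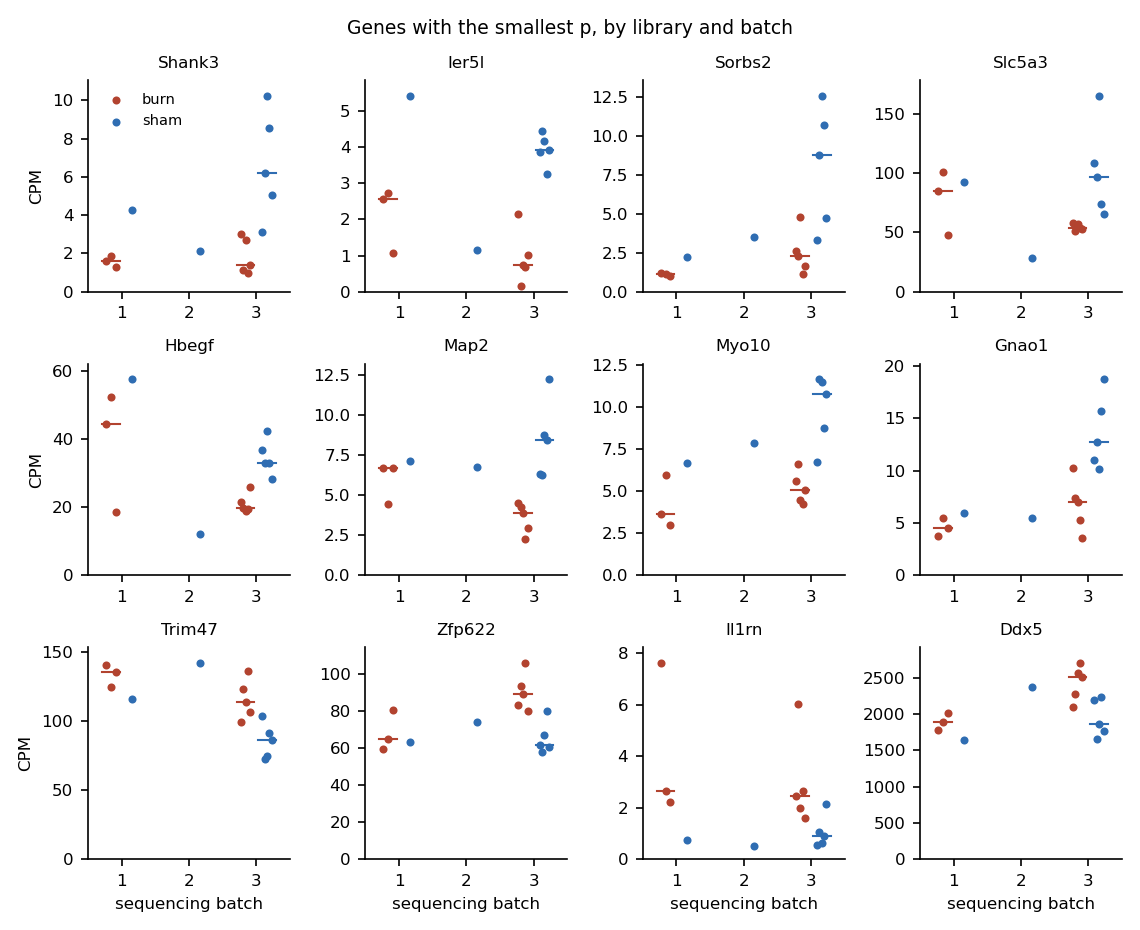
CPM of 12 genes with small p, for each library, by sequencing batch and treatment (points are libraries, short bars are medians of batches with more than 1 library). In batch 3 the burn libraries of Shank3, Ier5l, Slc5a3, Hbegf, Map2 and Myo10 lie below the sham libraries, and those of Zfp622 lie above them. The genes were chosen by p in these same libraries, so this separation is no further support. Among all genes of at least 1 CPM, 0.359% lay below and 0.528% above in this way.

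The pathways below are given by lists of genes, 26 lists with 820 different genes, of which 810 were tested. Members are named for a high level or a small p within their role, and other members with an unadjusted p under 0.05 were named after their values were seen. None of the 810 passed the test. At an unadjusted p under 0.05, 40 of them (4.94%) were higher and 25 (3.09%) lower in burn mice, close to the shares over all genes tested. For 664 of the 810 the 95% interval lay within a 2-fold change. As a measure for the counts of signs below, 50.5% of all genes tested had a log2FC above 0. Among genes of at least 10 CPM the share was 53.0%. Medians of whole lists ran from −0.19 to 0.15, and those of some parts of a list lay above this range.

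**Figure D4:**
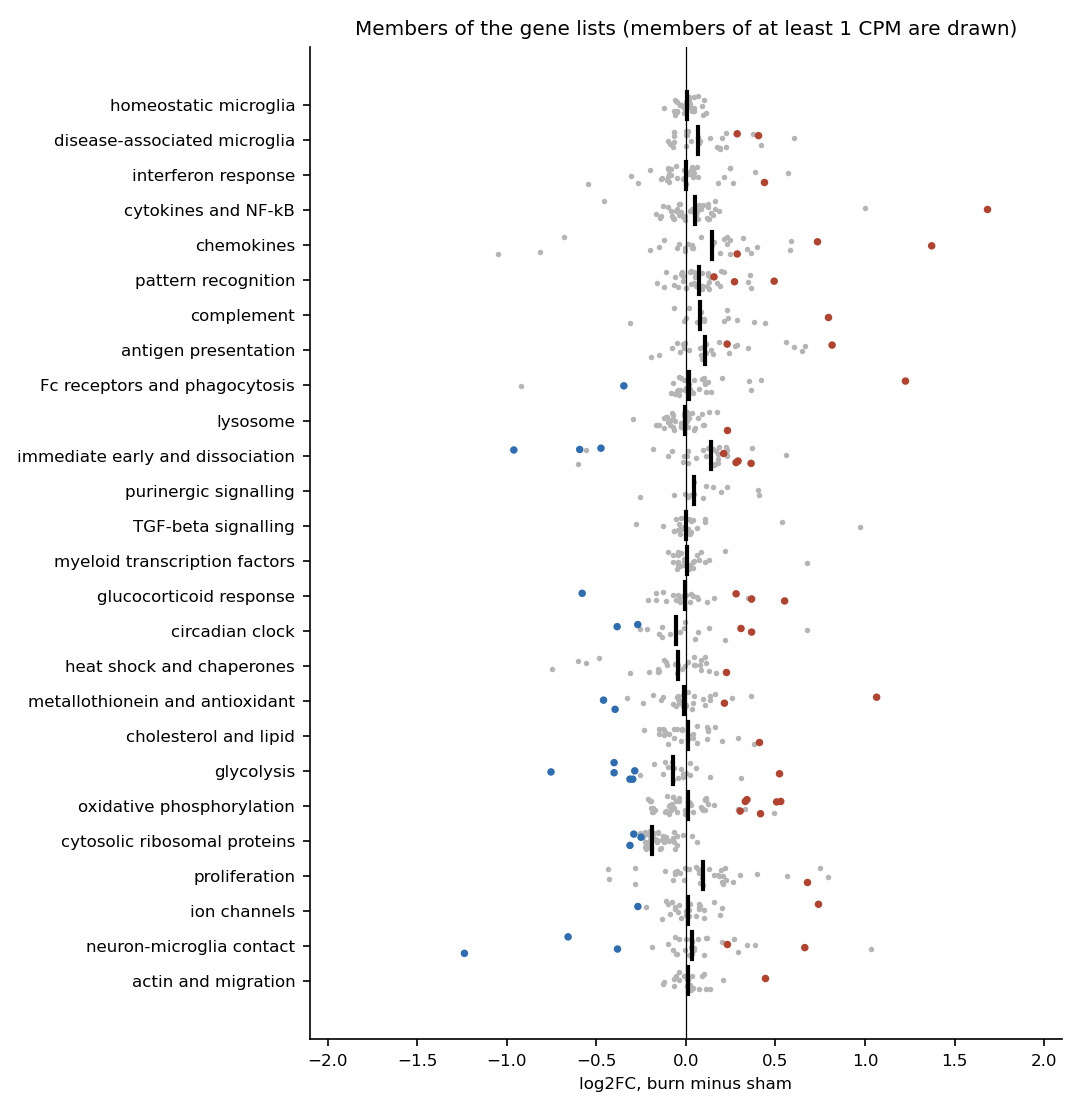
log2FC between burn and sham mice for the members of 26 gene lists with a level of at least 1 CPM (points; red and blue where the unadjusted p is under 0.05, higher and lower in burn mice), with a black bar at the median of all tested members of a list. Homeostatic microglial genes lie between −0.12 and 0.11, ribosomal protein genes lie mostly to the left, and most red points of oxidative phosphorylation are mitochondrially encoded.

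Homeostatic genes lay close to 0. All 31 homeostatic genes had intervals within a 2-fold change, log2FC of −0.12 to 0.11 and a median of 0.01. On the scale of level per length, in which counts are divided by the length of the gene and scaled to the same total, Cst3 (16772), the secreted inhibitor of cathepsins, and the actin gene Actb (10073) were among the 10 highest genes. Cx3cr1 lay at 3528 to 5582 (median 4738) CPM in burn mice and 3558 to 6264 (median 4595) in sham mice, a log2FC of 0.03 ± 0.10, and the ranges overlapped. C1qb, a subunit of the first complement component and among the 10 highest genes per length, had a log2FC of 0.01 ± 0.11.

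Transcription factors that set microglial identity also centred on 0. Over 26 lineage factors the median was 0.01, with 0 at an unadjusted p under 0.05. Sall1, which keeps microglia apart from other macrophages, lay at 1129 to 1440.0 (median 1285) CPM in burn mice and 1143 to 1580.3 (median 1319) in sham mice (log2FC 0.02 ± 0.08). Mef2a (0.04 ± 0.09) and Mef2c (0.03 ± 0.07) were as near to 0. TGF-beta from the brain maintains the homeostatic state through the receptors Tgfbr1 (−0.03 ± 0.08) and Tgfbr2 (0.02 ± 0.08), and the ligand Tgfb1 had a log2FC of −0.05 ± 0.07. Over 31 genes of that pathway the median was 0.00, and the only member with an unadjusted p under 0.05, Bmp4, was listed at 0 CPM in every sham library and reached 0.56 CPM in burn mice.

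Purinergic sensing is the means by which processes find sites of damage. Its 23 genes had a median of 0.05, and of the receptors P2ry13 (0.11 ± 0.10), P2rx7 (0.03 ± 0.07), P2ry6 (0.15 ± 0.09) and P2rx4 (0.09 ± 0.08) none had an unadjusted p under 0.05. Entpd1, the enzyme on the cell surface that degrades ATP, had a log2FC of 0.01 ± 0.09. Among 30 ion channels, Kcna3, a potassium channel of activated microglia, lay at 4.38 to 11.0 (median 6.11) CPM in burn mice and 2.27 to 10.7 (median 2.75) in sham mice (log2FC 0.74 ± 0.33), with overlapping ranges, and Orai3, a calcium channel subunit, had a log2FC of −0.27 ± 0.10. Kcnk6, the highest potassium channel of the list, had one of 0.06 ± 0.10.

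Genes of the disease-associated state, which microglia take on around plaques and dying cells, had a median of 0.07 over 30 members. Apoe, the main lipid carrier of the brain, lay at 165 to 579 (median 452) CPM in burn mice and 130.5 to 471 (median 254) in sham mice (log2FC 0.41 ± 0.16). Those ranges overlapped, and Apoe was also called higher in batch 3 than in the other batches (log2FC 1.25 ± 0.21). The chemokine Ccl6 lay at 52.4 to 84.2 (median 66.9) and 45.2 to 70.8 (median 57.6) CPM (log2FC 0.29 ± 0.11). Trem2, the lipid sensor required for this state, had a log2FC of −0.07 ± 0.09, the lysosomal proteases Ctsb and Ctsd had values of 0.00 ± 0.10 and −0.09 ± 0.11, and Cd9 had one of 0.03 ± 0.09. Genes that mark the full state, the integrin Itgax (0.08 ± 0.16), the glucan receptor Clec7a (0.22 ± 0.22), the cystatin Cst7 (0.19 ± 0.30) and the phagocytic receptor Axl (0.42 ± 0.21), had p above that threshold. Gpnmb, with an unadjusted p under 0.05 on the lower side, had a median of 0 CPM in burn mice and 0.0375 in sham mice.

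Interferon genes centred on 0. Over 42 genes the median was 0.00, 21 were above 0 and 1 had an unadjusted p under 0.05. That gene, Ifi207, a DNA sensor of the Ifi200 family, lay at 16.5 to 49.3 (median 31.1) CPM in burn mice and 4.61 to 29.1 (median 25.0) in sham mice (log2FC 0.43 ± 0.17) and was called higher in batch 3 (log2FC 1.67 ± 0.24). Among the receptors and factors, Ifnar1 had a log2FC of 0.07 ± 0.08, Ifnar2 one of 0.04 ± 0.07 and Irf1 one of −0.10 ± 0.12. The effectors Isg15 and Ifitm3, which cells make soon after interferon binds, had values of −0.55 ± 0.41 and −0.09 ± 0.27.

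Cytokine genes centred near 0 as well (48 genes, median 0.05). Il1rn, the secreted antagonist of the interleukin 1 receptor, was the only member with an unadjusted p under 0.05 (p = 0.00181). It lay at 1.58 to 7.62 (median 2.56) CPM in burn mice and 0.526 to 2.15 (median 0.730) in sham mice, a log2FC of 1.68 ± 0.48. A single sham mouse of batch 3 reached into the burn range, and the highest burn values, 7.62 and 6.02 CPM, came from 1 mouse each of batches 1 and 3. The abundant cytokine Il1a had a log2FC of 0.13 ± 0.10, and the regulators of NF-kB Nfkbiz and Nfkbia had values of 0.18 ± 0.11 and −0.13 ± 0.08. The classic inflammatory cytokines were no exception: Tnf lay at 101 to 183 (median 115) CPM in burn mice and 62.4 to 182 (median 129.7) in sham mice (log2FC −0.17 ± 0.11), Il1b had a log2FC of 0.14 ± 0.24 and Il6 one of 0.02 ± 0.23.

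Among whole lists chemokines had the highest median, 0.15 over 35 genes with 24 above 0. Ccl5, which attracts T cells and monocytes, lay at 2.16 to 18.6 (median 3.93) CPM in burn mice and 1.80 to 3.89 (median 2.48) in sham mice (log2FC 1.37 ± 0.45). Cxcr2, a receptor best known from neutrophils, lay at 2.24 to 10.4 (median 6.19) and 1.32 to 4.54 (median 2.78) CPM (log2FC 0.73 ± 0.32). Both ranges overlapped, and the monocyte and neutrophil markers beside them had a median of 0.07 over 12 genes, with 0.39 ± 0.24 for Ccr2 and −0.40 ± 0.33 for S100a8. Ccl3 and Ccl4, chemokines that microglia release readily, had log2FC of 0.23 ± 0.17 and 0.01 ± 0.16.

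Pattern recognition genes had 29 of 40 members above 0 and a median of 0.07. Cd180, a Toll-like receptor homologue, lay at 200.2 to 368 (median 290.0) CPM in burn mice and 204 to 297 (median 223) in sham mice (log2FC 0.27 ± 0.11). Irak1, a kinase below these receptors, had a log2FC of 0.16 ± 0.07 and Irak3, a brake on the same signal, one of 0.49 ± 0.21. Of the sensors, Tlr7 had a log2FC of −0.02 ± 0.10, Tlr13 one of 0.19 ± 0.10 and the inflammasome gene Nlrp3 one of 0.04 ± 0.10.

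In the complement system the genes of the first component lay near 0: C1qa had a log2FC of 0.10 ± 0.12 and C1qc one of −0.01 ± 0.10. C4b, the fourth component, lay at 22.2 to 94.3 (median 50.7) CPM in burn mice and 10.7 to 43.9 (median 29.5) in sham mice (log2FC 0.80 ± 0.27, unadjusted p = 0.00716). Its highest burn libraries lay above every sham library, but the lower burn libraries did not. The receptor C3ar1 had a log2FC of 0.06 ± 0.09. Over 21 tested of 24 genes the median was 0.08.

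Antigen presentation genes were above 0 in 22 of 30 cases, with a median of 0.11. H2-K1, a class I molecule, lay at 614 to 835 (median 680.0) CPM in burn mice and 411 to 691 (median 558) in sham mice (log2FC 0.23 ± 0.11), H2-D1 had a log2FC of 0.19 ± 0.10 and B2m, their shared light chain, one of 0.02 ± 0.11. The class II gene H2-Ab1 lay at 53.5 to 358 (median 87.5) and 35.9 to 144 (median 51.9) CPM (log2FC 0.82 ± 0.37) and the invariant chain Cd74 at 143 to 829.5 (median 212) and 91.9 to 339 (median 131) CPM (log2FC 0.60 ± 0.34). Summed over 13 class II genes, burn mice spanned 741 to 2409 CPM and sham mice 644 to 1199 CPM, and the top of the burn range came from batch 1: within batch 3 the burn mice reached 1405 CPM and the sham mice 1199 CPM. Class II genes are also strongly expressed by border macrophages.

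Genes for uptake and digestion centred on 0. Over 38 genes for Fc receptors and phagocytosis the median was 0.02, with Mertk, the receptor for dying cells, at 0.00 ± 0.07 and Lrp1 at −0.04 ± 0.10. Timd4, a receptor for phosphatidylserine on resident macrophages, lay at 0.387 to 6.87 (median 2.95) CPM in burn mice and 0.241 to 2.69 (median 0.880) in sham mice (log2FC 1.23 ± 0.55). Mfge8, a bridge between dying cells and phagocytes, had a log2FC of −0.35 ± 0.16, and Megf10, an engulfment receptor of astrocytes, one of −2.49 ± 1.00 at 2.78 CPM or less in every library. Among 47 lysosomal genes the median was −0.01, with Lgmn at 0.00 ± 0.09 and Psap at −0.01 ± 0.11, and the calcium channel Mcoln1 at 0.23 ± 0.10 alone had an unadjusted p under 0.05.

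Immediate early genes were high in level, and most of their estimates were above 0. Their transcription factors made up 2.36 to 2.97% of all counts in burn mice and 1.92 to 2.72% in sham mice, a level that enzymatic dissociation of living tissue is known to raise. Of 23 such factors 18 were above 0, with a median of 0.17. Fosb lay at 1172 to 2773 (median 2168) CPM in burn mice and 1418 to 2695 (median 1569) in sham mice (log2FC 0.36 ± 0.14), and Zfp36, which destabilises cytokine messages, had a log2FC of 0.29 ± 0.10. Fos (0.18 ± 0.12), Egr1 (0.22 ± 0.11) and Jun (0.18 ± 0.09) had the same sign. Signalling genes of the same list were split: the phosphatase Dusp1 had a log2FC of 0.28 ± 0.11, while Dusp2 (−0.59 ± 0.16), Gadd45b (−0.47 ± 0.18) and Arc (−0.96 ± 0.43) were below 0. Every library was dissociated, and the part of dissociation in these values was not tested.

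Stress hormone targets gave a mixed picture (26 genes, median 0.00). Per1, which is both a clock gene and a glucocorticoid target, lay at 204 to 401 (median 348) CPM in burn mice and 219 to 322 (median 269.7) in sham mice (log2FC 0.37 ± 0.12). The glucocorticoid receptor Nr3c1 had a log2FC of −0.07 ± 0.08, its target kinase Sgk1 one of 0.16 ± 0.12 and Ddit4 one of −0.58 ± 0.22. Fkbp5 and Tsc22d3, commonly used readouts of the hormone, had values of 0.06 ± 0.13 and 0.12 ± 0.15. In the clock list of 21 genes, Arntl, the activator, had a log2FC of 0.31 ± 0.13, and the output genes Nr1d2 (−0.27 ± 0.10) and Dbp (−0.38 ± 0.19) were below 0. The time of day of collection is not given in the sources used here.

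Heat shock genes varied widely between mice of either treatment. Over 17 cytosolic chaperones the median was −0.12 with 3 above 0, and over 14 of the endoplasmic reticulum and mitochondria 0.06 with 10 above 0. Hspa1a lay at 78.2 to 932 (median 279) CPM in burn mice and 57.4 to 1311 (median 479.9) in sham mice (log2FC −0.56 ± 0.41). Hspa1a shares 58.8% of its 50-base windows with Hspa1b, so these genes are uncertain one by one. Herpud1, a gene of the unfolded protein response, had a log2FC of 0.22 ± 0.09, and Hspa5, the main chaperone of the endoplasmic reticulum, one of 0.13 ± 0.10.

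Antioxidant and iron genes had members on each side (33 genes, median −0.01). Gpx3, a secreted glutathione peroxidase, lay at 2.66 to 10.2 (median 5.68) CPM in burn mice and 1.37 to 5.04 (median 2.26) in sham mice (log2FC 1.07 ± 0.32). In batch 3 its burn range of 5.27 to 10.2 CPM lay above the sham range of 1.37 to 2.99 CPM. The ferritin gene Fth1 had a log2FC of 0.22 ± 0.10, and the haem-degrading enzyme Hmox1 one of −0.40 ± 0.18. The transferrin receptor Tfrc lay at 28.0 to 44.1 (median 33.3) CPM in burn mice and 21.3 to 62.1 (median 42.5) in sham mice, with overlapping ranges and a log2FC of −0.46 ± 0.13. Lipid genes centred near 0: 19 genes of cholesterol synthesis had a median of −0.02, and the exporters Abca1 and Abcg1 had values of −0.15 ± 0.09 and −0.10 ± 0.09.

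Glycolysis had 19 of 25 genes below 0 and a median of −0.07. The 6 with an unadjusted p under 0.05 on that side were the glucose transporter Slc2a1 (−0.30 ± 0.10), the lactate transporter Slc16a1 (−0.40 ± 0.13), Tpi1 (−0.31 ± 0.10), Pgam1 (−0.29 ± 0.11), Pfkm (−0.40 ± 0.16) and Aldoc (−0.75 ± 0.27). Over all genes tested 3.58% were lower in burn mice at that threshold. Pfkp, another form of the same enzyme as Pfkm, had a log2FC of 0.52 ± 0.24. Tpi1 lay at 59.8 to 105 (median 73.1) CPM in burn mice and 62.2 to 126 (median 76.5) in sham mice, and Aldoc, an enzyme typical of astrocytes, at 3.73 to 13.6 (median 6.87) and 7.77 to 25.4 (median 10.1) CPM. All of these ranges overlapped. The most abundant member, Gapdh, had a log2FC of 0.00 ± 0.08, and in batch 3 alone the median of the list was −0.01.

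Protein-coding genes of the mitochondrial genome stood apart from the nuclear genes of the same complexes. Of 13 protein-coding genes encoded in mitochondria 12 were above 0 and 6 had an unadjusted p under 0.05 (median 0.34), whereas 40 nuclear genes had a median of −0.04 and 1 such gene, Atp5g1 (0.33 ± 0.14). Over all genes tested 4.23% were higher in burn mice at that threshold. mt-Nd5, a subunit of complex I, lay at 28.6 to 294 (median 211) CPM in burn mice and 38.3 to 172 (median 127) in sham mice (log2FC 0.53 ± 0.13, unadjusted p = 0.000603). In batch 3 the burn range of 185 to 294 CPM lay above the sham range of 118 to 172 CPM. mt-Nd4 (0.42 ± 0.13), mt-Nd2 (0.51 ± 0.22), mt-Nd1 (0.34 ± 0.12) and mt-Atp6 (0.30 ± 0.12) had the same sign. The abundant transcripts of other complexes lay nearer to 0: mt-Co1 had a log2FC of 0.04 ± 0.08, mt-Co3 one of −0.10 ± 0.08 and mt-Cytb one of 0.09 ± 0.08. The mitochondrial ribosomal RNA mt-Rnr2, outside these 13 and named after its value was seen, went the other way. Its mean level was 53.3 CPM and its log2FC −0.60 (unadjusted p = 0.0154 by edgeR).

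Several of these genes also differed between sequencing batches. mt-Nd4 lay at 29.5 to 97.5 CPM in the 5 libraries of batches 1 and 2 and at 192 to 316 CPM in sham mice and 271 to 419.9 CPM in burn mice of batch 3, and mt-Nd5 had a batch log2FC of 1.74 ± 0.19. As a share of all counts, protein-coding mitochondrial genes made up 0.324 to 0.441% in batches 1 and 2 and 0.566 to 0.742% in batch 3. Within batch 3 the share was 0.666 to 0.742% in burn mice and 0.566 to 0.690% in sham mice. Several nuclear copies carry the same sequence: Gm28439 shares 100% of its 50-base windows with mt-Nd4, Gm10925 100% with mt-Atp6 and Gm29216 97.1% with mt-Co1, so counts of these pairs are uncertain one by one. Gm13341 (1.62 ± 0.42), which shares 36% of its windows with mt-Co2, lay at 0.150 to 7.18 (median 4.90) CPM in burn mice and 0.0187 to 3.60 (median 1.60) in sham mice.

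**Figure D5:**
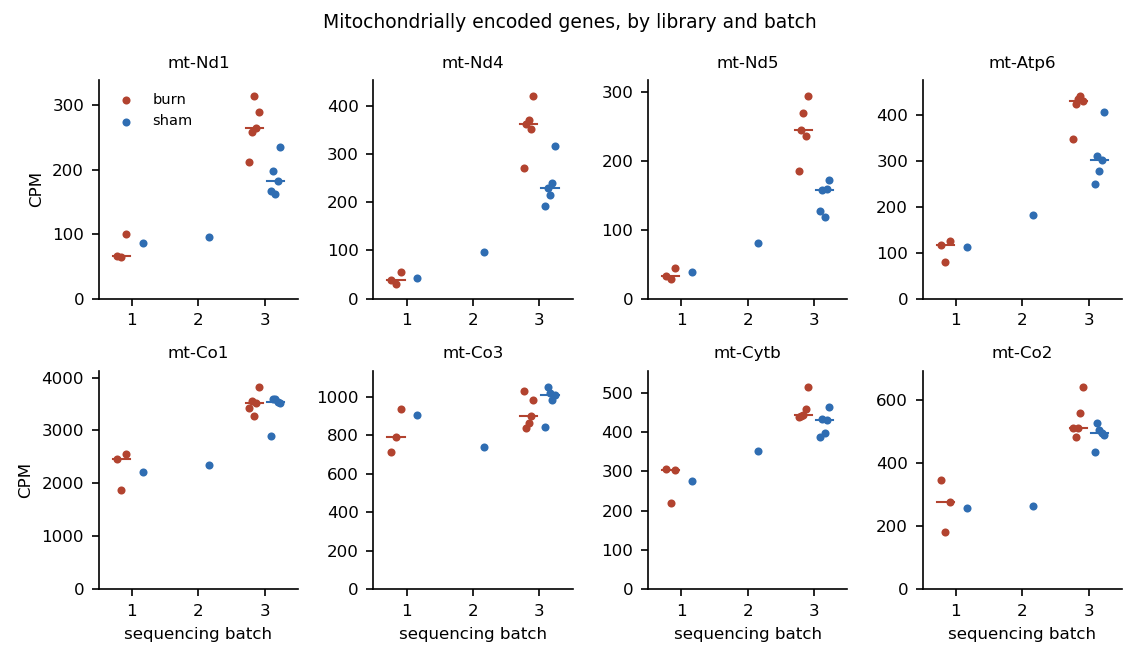
CPM of 8 mitochondrially encoded genes in each library, by sequencing batch and treatment (points are libraries, short bars are medians of batches with more than 1 library). mt-Nd4 and mt-Nd5 are higher in every library of batch 3 than in any other library, and within batch 3 mt-Nd5 is higher in all 5 burn mice than in the 5 sham mice, while mt-Co1 and mt-Co3 overlap.

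Ribosomal protein genes had the lowest median of the whole lists, with 0 genes called. Of 51 genes of the cytosolic ribosome 49 were below 0, with a median of −0.19 and a range of −0.31 to 0.06. The median was −0.17 over 26 genes of the large subunit and −0.19 over 25 genes of the small subunit, and 3 genes had an unadjusted p under 0.05, among them Rps23 (−0.31 ± 0.13) and Rps14 (−0.29 ± 0.13). Rps23 lay at 132 to 203 (median 149) CPM in burn mice and 127 to 300.2 (median 182) in sham mice. The sum of all 51 genes overlapped widely, at 5950.1 to 9387 CPM in burn mice and 5998 to 10518 in sham mice. These genes were measured in the same 15 libraries and encode parts of a single complex, so the 51 estimates are not independent observations.

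Proliferation genes were low and scattered. The median of 20 cell cycle genes, which are only part of their list, was 0.21, and only the mitotic motor Kif11 (0.68 ± 0.29) had an unadjusted p under 0.05. Mki67, a marker of dividing cells, lay at 6.17 to 25.4 (median 13.3) CPM in burn mice and 0.666 to 30.0 (median 8.77) in sham mice (log2FC 0.31 ± 0.50), with the burn range inside the sham range. Pcna had a log2FC of −0.06 ± 0.08 and the cell cycle inhibitor Cdkn1b one of 0.00 ± 0.08.

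Genes for contact with neurons and for movement had medians of 0.03 (36 genes) and 0.01 (25 genes). Siglec1, a sialic acid receptor of macrophages, lay at 13.1 to 40.3 (median 26) CPM in burn mice and 9.19 to 25.1 (median 12.3) in sham mice (log2FC 0.66 ± 0.23), with no overlap in batch 3 (23.5 to 40.3 against 9.78 to 22.9 CPM), and Siglece had a log2FC of 0.23 ± 0.09. Sema6d, a guidance molecule, lay at 40.9 to 65.7 (median 49.1) and 51.3 to 81.2 (median 57.3) CPM (log2FC −0.38 ± 0.11). Members of these lists below 0 included the glutamate receptor subunit Gria2 (−1.24 ± 0.54) and the neurotrophin receptor Ntrk2 (−0.66 ± 0.26), which neurons or astrocytes express strongly. Sirpa, the receptor for the signal that protects cells from uptake, had a log2FC of 0.04 ± 0.08, Siglech one of 0.07 ± 0.07, and the integrin Itga4 one of 0.44 ± 0.21.

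The burn effect in microglia was set against that in 2 other sorted populations of the same mice, astrocytes and the double-positive libraries. The latter were sorted from motor cortex for mRuby2, labelled inhibitory neurons and described in the study as carrying both viral labels. Their markers went against that label. The 8 microglial markers summed to 17125 to 32532 (median 20465) CPM in the 16 double-positive libraries, beside 20619 to 34721 (median 27052) CPM in the microglia, with P2ry12 at 1760.1 to 2818 CPM. The 10 neuronal markers summed to 20.6 to 74.9 (median 39.1) CPM, beside 18.3 to 45.6 (median 22.9) CPM in the microglia, and the interneuron enzymes Gad1 and Gad2 had medians of 0.637 and 0.467 CPM. Astrocyte markers summed to 459 to 1397 CPM in the double-positive libraries and to 200 to 358 CPM in the microglia. A comparison with these libraries is therefore not one of microglia with neurons. In the 17 astrocyte libraries the astrocyte markers summed to 33977 to 53481 CPM and the microglial markers to 142 to 278 CPM.

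The double-positive libraries of burn mouse 3 and sham mouse 8 were not used, the latter because of the size of its library. In a single edgeR fit of 2 populations, the difference of the burn effects was called for 0 of 28752 genes (0%) against the double-positive libraries, where the smallest adjusted p was 0.567 and 1802 genes had an unadjusted p under 0.05. With the mouse as a replicate block, over the 14 mice with both libraries in use, 17 genes were called (0.0604%), 2 with a higher and 15 with a lower effect in microglia, and DESeq2 without the block called 97. Against the astrocytes 1 of 30983 genes was called (0.00323%), Tmem200c, and with the replicate block over 15 mice 0 genes were called, with 978 genes at an unadjusted p under 0.05, and DESeq2 without the block called 364. Tmem200c lay at 47 to 75.1 CPM in the astrocytes of both treatments but at 0 CPM in all burn microglia and 0.662 CPM or less in sham microglia, so its difference rests on a few counts.

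The 17 genes called with the replicate block included Grb14 (adjusted p = 0.0402 by edgeR). The difference of the burn effects (microglia minus double-positive libraries) was −1.56 for Gnao1, −1.53 for Aldoc, −1.15 for the glutamate transporter Slc1a2, −1.39 for Ptprz1 and −1.82 for Fgfr3. Slc1a2 and Fgfr3 are 2 of the 10 astrocyte markers, and Aldoc is typical of astrocytes. That list had a median log2FC of −0.54 in microglia, and its sum was 459 to 1397 CPM in the double-positive libraries against 200 to 358 CPM in microglia. The part of astrocyte RNA in these calls was not tested. In microglia Slc1a2 lay at 31.4 to 96.4 (median 38.8) CPM in burn mice and 29.8 to 93.5 (median 74.9) in sham mice, with a log2FC of −0.38 ± 0.19, and in the double-positive libraries its log2FC was 0.35 ± 0.24. These 2 estimates have opposite signs, and neither was called alone. They come from fits without the block, on all libraries in use, so they are not the parts of the called difference. Ccr1, a chemokine receptor of myeloid cells, had the smaller p of the 2 genes in the other direction, with a difference of 1.27. Without the block it had a log2FC of 0.32 ± 0.16 in microglia and one of −0.53 ± 0.20 in the double-positive libraries. The genes given here from these 17 were chosen after their values were seen.

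For the genes with the smallest p in microglia, the estimates in the other populations varied in sign and size. Shank3 had a log2FC of 0.15 ± 0.33 in the double-positive libraries and 0.07 ± 0.31 in the astrocytes, and its effect in microglia differed from these by −1.91 ± 0.47 (adjusted p = 0.567 by edgeR, and 0.415 with the replicate block) and −1.82 ± 0.48. Map2 had values of 0.17 ± 0.21 and −0.20 ± 0.15, Sorbs2 of 0.35 ± 0.37 and 0.20 ± 0.22, and Slc5a3 of 0.02 ± 0.32 and 0.09 ± 0.18. Other genes had estimates of 1 sign in all 3 populations, among them Trim47, at 0.29 ± 0.13 in the double-positive libraries and 0.51 ± 0.15 in the astrocytes, Gm49774, at −0.90 ± 0.56 and −1.20 ± 0.53, Engase, at −0.19 ± 0.10 and −0.37 ± 0.16, and AC122252.2, at 0.23 ± 0.19 and 0.56 ± 0.29. In the double-positive libraries Ier5l had a log2FC of −0.49 ± 0.49, Hbegf one of −0.42 ± 0.30 and Gnao1 one of 0.41 ± 0.21. Il1rn, higher in burn microglia, had one of −0.60 ± 0.62 there, a difference of 2.29 ± 0.89 (adjusted p = 0.602 by edgeR). mt-Nd5 had values of 0.07 ± 0.17 in the double-positive libraries and 0.14 ± 0.22 in the astrocytes. These libraries come from the same mice and in part the same sequencing batches, so they are not independent repeats.

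More genes were called between sequencing batches than between treatments. In the same fit, batch 3 differed from the mean of batches 1 and 2 in 104 genes (0.399%), 102 of them higher in batch 3, and in 458 genes (1.76%) at any fold change, 219 higher and 239 lower. The 104 calls became 54 to 217 with 1 library left out, with the lowest count without sham mouse 18 and the highest without sham mouse 19, and DESeq2 called 424. The 6 genes with the smallest p on the higher side were mitochondrial or their nuclear copies: mt-Nd4 (2.13 ± 0.20), Gm28439 (2.13 ± 0.19), mt-Nd5 (1.74 ± 0.19), Gm10925 (1.37 ± 0.16), mt-Atp6 (1.31 ± 0.15) and mt-Nd1 (1.33 ± 0.16). On the lower side they were the tubulins Tuba1b (−0.84 ± 0.12) and Tuba1a (−0.65 ± 0.11), Ubr7 (−0.81 ± 0.14), Rnf187 (−0.63 ± 0.11), Mob1a (−0.54 ± 0.10) and Gcn1l1 (−0.48 ± 0.09), each with an adjusted p of at most 0.00846. The border macrophage genes F13a1 (1.54 ± 0.23) and Cd163 (1.26 ± 0.27) were also higher in batch 3, and the list of 10 had a median batch log2FC of 1.00 against −0.25 for the homeostatic genes. The sum of these 10, mostly Stab1, went the other way, with a mean of 1667 CPM in batch 3 and 1870 CPM in batches 1 and 2. Batch 2 is 1 sham mouse and batch 1 holds 3 burn mice and 1 sham mouse, so outside batch 3 batch and treatment are partly confounded.

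Some genes varied widely between mice of the same treatment and batch. Among genes of at least 10 CPM, Eps8l1, a regulator of actin, had the largest within-group standard deviation of log2 CPM (2.49), with 2.06 to 89.0 (median 81.2) CPM in burn mice and 0 to 74.8 (median 53.5) in sham mice. Igkc, the constant region of antibody light chains and a trace of B cells or plasma cells, ranged over 2.09 to 37.0 (median 7.39) CPM in burn mice and 1.03 to 33.8 (median 5.38) in sham mice, Fn1, the matrix protein fibronectin, over 2.84 to 47.5 (median 25.4) and 9.28 to 96.3 (median 20.6), and the acute phase gene Lcn2 over 7.75 to 18.2 (median 11.0) and 0.776 to 36.4 (median 7.10). Their log2FC were 0.46 ± 0.66, −0.37 ± 0.45, −0.47 ± 0.47 and 0.02 ± 0.48, in the same order. The chaperones Hspa1a (1.17), Hspa1b (1.38) and Hsph1 (1.03) and the proliferation gene Mki67 (1.41) were among the 10 most variable genes, together with Ptprb and Ace.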

How the data were processed

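RNA of CD11b-sorted cells was sequenced for the authors at an external facility as stranded total RNA without ribosomal RNA, the first 15 bases were trimmed with fastp, reads were aligned with STAR and raw counts per gene were deposited. The labels name GRCm39 and mm10 as builds, and the strand setting of the counting is not given in the sources used here. No coordinates were used. Symbols and gene lengths came from GENCODE release M21 (52073 of 56980 genes matched), and 135 genes that share a symbol were not named. Some genes are not reported here.

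Treatment came from the labels and batch from the study's sample sheet. Counts were tested with edgeR 4.0.16 in R 4.3.3 (TMM, at least 10 counts in total, batch and treatment, quasi-likelihood test, Benjamini-Hochberg), calls being an adjusted p of at most 0.05 with an absolute log2FC of at least 1. DESeq2 1.42.0, other scalings, filters and batch terms and each library left out were alternatives. CPM used TMM-scaled library sizes. Standard errors are the log2FC divided by the square root of F. The script was tested on simulated counts.

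Named genes were the 12 of at least 1 CPM with the smallest p in each direction, 6 in each direction between batches, the 10 most variable, the 10 highest per length, marker genes and, in each role of a list, the 2 highest members and that with the smallest p in each direction, and the genes the study named. The members, lists and tests were chosen with earlier results of these data known. Library 3 was left out of all but 1 alternative, and double-positive library 8 throughout. Mice with the same number in 2 cell types are the same animal. Over 13 mice the deviations of paired libraries from their group means had a median correlation of 0.0396 (−0.199 to 0.281) with the double-positive libraries and of 0.0585 (−0.0687 to 0.221) with the astrocytes. Depth was 16531118 to 54802103 counts, and the floor of 3 counts covers counting error only. The 95% intervals of log2FC come from the edgeR fit and include the spread between mice.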

Additional observations from a re-analysis of the deposited data

Results flagged for a closer look

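In 132 groups of 7 or 8 libraries, the values of the genes and marker lists described above were searched for a single library far from the others of its treatment, measured as its gap to the nearest library over the range of the group. Chance alone gives about 1 in 20, and 7 were found. The sham mouse of batch 2 was the lowest sham library for Ier5l (1.14 CPM, the next sham library at 3.25) and for Ifi207 (4.61 CPM, the next at 16.0). Burn mouse 2 was the highest burn library for the class I gene H2-K1 (835 CPM, the next at 691) and for Grb14 (0.577 CPM, the next at 0.193). Sham mouse 18 was the highest sham library for Fosb (2695 CPM, the next at 1861), and sham mouse 19 was at 0 CPM for Eps8l1 with the next sham library at 15.2. Burn mouse 20 had the highest summed astrocyte markers among burn mice (358 CPM, the next at 243). Between cell types, the burn effect on Tmem200c differed between microglia and astrocytes by −5.31 ± 0.83 (edgeR adjusted p = 0.0422), from under 1 CPM in every microglia library, and this call was not made with the replicate block.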

How the results depend on the processing

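All 23 edgeR alternatives for burn against sham called 0 genes, with smallest adjusted p of 0.0651 or more, and leaving out 1 library gave 0 to 0 calls with 1477 to 2214 genes at an unadjusted p under 0.05. DESeq2 called 80 genes, and 4 when restricted to genes kept by filterByExpr, an alternative chosen after seeing the data. Among 205 named genes, 5 changed direction from an estimate larger than its standard error, all without a batch term: the log2FC of Nfkbia (0.0076), that of S100a8 (0.28), that of Tnf (0.045), that of Tuba1b (0.032) and the log2FC of mt-Cytb (−0.0057). A further 183 of 5124 values changed sign from an estimate within 1 standard error of 0, and 12 values passed the test under an alternative. No list median moved by more than the spread between libraries. That spread is not the error of a list median. A small median could shrink or change sign without counting as moved, so this result does not show that the medians are stable. Of genes of at least 10 CPM, 8803 to 8858 had an interval within a 2-fold change with 1 library left out.

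Between batches 424 genes were called by DESeq2 and 54 to 217 with 1 library left out, with 58, 54 and 217 genes without sham mice 17, 18 and 19 and 62 and 60 without burn mice 21 and 23. With the mouse as a replicate block, a fit that also kept only mice with both libraries, there were 17 calls in place of 0 against double-positive libraries and 0 in place of 1 against astrocytes, and DESeq2 without the block gave 97 and 364. With 1 mouse left out the astrocyte comparison gave 0 to 9 calls, of 26 different genes, with 0 calls without mouse 11, 12, 20, 21, 22 or 23, 2 without mouse 2, 7, 13, 15 or 24, 3 without mouse 10 or 17, 4 without mouse 16, 7 without mouse 8 and 9 without mouse 19. The double-positive comparison gave 0 to 0 calls. The cause of these changes was not tested. Batch 2 is 1 library, and the median standard error of genes below 10 CPM was 1.11.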

Other observations

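Growth factors that microglia depend on or supply were near 0 where their level allowed a reading. Csf1, a ligand of Csf1r made by several brain cells, lay at 74.4 to 139 (median 108) CPM in burn mice and 59.8 to 128 (median 112) in sham mice (log2FC 0.07 ± 0.15), and Igf1, which supports neurons and oligodendrocytes, had a log2FC of 0.20 ± 0.21. Il34, the other ligand of Csf1r and a product of neurons, and the neurotrophin Bdnf were at the detection floor, with medians of 0 and 0 CPM in burn mice and 0 and 0 CPM in sham mice. Metallothionein 1 (Mt1), which rises with stress hormones and metals, had a log2FC of 0.36 ± 0.19. None of these genes had an unadjusted p under 0.05.

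The left-out library of burn mouse 3 held 51139945 counts and 19383 genes with at least 10 counts, above the 16745 to 19137 genes of the 15 libraries compared.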
